A study of Mus musculus with 10 samples.

Results

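Homologous recombination repairs a broken DNA double strand by copying an intact sister molecule, and the RNA of 9 genes of this route was followed in quiescent fibroblasts that had or lacked Lin37. The genes were *Brca1*, *Brca2*, *Bard1*, *Rad51ap1*, *Rad54l*, *Rad54b*, *Xrcc2*, *Blm* and *Exo1*. They were taken by name from a given list of recombination genes and matched by Ensembl identifier to the deposited matrix, so they are 9 of its 45232 entries. Of the 9, 8 are on the study's own list of up-regulated genes, which was drawn from these libraries, and *Xrcc2* is not. The direction, size and calls of those 8 are therefore not independent evidence.

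In this route, nucleases such as EXO1 cut back the broken ends to leave single strands, BRCA1 with BARD1 promotes that step, and BRCA2 helps to build the protein filament on the exposed strand. XRCC2, RAD54, RAD54B and the product of *Rad51ap1* help in the assembly and in the invasion of the intact sister. The BLM helicase helps to take the joined molecules apart. Because the template is usually a sister chromatid, the route works mainly in S and G2 phase, and many of its genes are transcribed with the cell cycle. In resting cells many such genes are bound by DREAM, a repressor complex made of the MuvB core, of which Lin37 is a subunit, with E2F4 and a pocket protein.

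All libraries came from NIH3T3 cells, an immortalized mouse fibroblast line, kept for 60 h in medium without serum, a treatment that brings these cells into quiescence. In every library the chromosomal *Lin37* gene carried InDels made with a Cas9 nickase, in 1 single cell clone at exon 4 and in 1 at exon 6. The cells held an doxycycline-inducible episomal vector, a plasmid kept outside the chromosomes, and its insert was luciferase in the cells called KO and wild-type Lin37 in those called rescue. The exon 4 clone gave 4 libraries, with 2 biological replicates of KO and 2 of rescue. The exon 6 clone gave 6, since replicate 2 of each genotype was also measured in a technical replicate, and the technical replicates were averaged so that 4 KO and 4 rescue replicates were compared. Each mutation is represented by 1 clone, and no library of unedited NIH3T3 cells was analysed here.

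Values are RPKM, reads scaled to gene length and to library size, as deposited by the authors and then rescaled between libraries by the median of ratios. The number of reads behind a value is unknown, so no counting error is given. Fibroblast markers were abundant as a sum over 8 genes, at 470 to 765 RPKM in KO and 506 to 829 RPKM in rescue replicates. Of the 8 genes, 0 were called changed. The sum does not describe each marker, since *Thy1* differed between the clones around a mean of 4.83 RPKM over both. It was at 0.867 RPKM in KO and 1.42 RPKM in rescue of the exon 4 clone, and higher in both genotypes of the exon 6 clone. Single markers of epithelial, haematopoietic, endothelial and muscle cells had means over both clones of at most 0.199, 0.104, 0.0814 and 0.195 RPKM. These levels do not show absence, since the mean of *Xrcc2* was 0.197 RPKM. The epithelial marker *Cdh1* was at 0.342 RPKM in KO and 0.343 RPKM in rescue of the exon 4 clone. In the exon 6 clone it was at 0.0429 and 0.0703 RPKM. The haematopoietic marker *Cd3e* reached 0.809 RPKM in 1 rescue replicate of the exon 4 clone. As a measure of background, the mean over 1020 olfactory receptor genes, which serve in sensory neurons of the nose, ranged from 0.00148 to 0.104 RPKM per library and was highest in rescue replicate 2 of the exon 4 clone.

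*Lin37* itself checked the labels. On the rescaled values, KO libraries of the exon 4 clone had 0.285 and 0.284 RPKM and its rescue libraries 2.54 and 2.12 RPKM. Those of the exon 6 clone had 0.417, 0.279 and 0.268 RPKM in KO, against 4.92, 5.11 and 4.41 RPKM in rescue, the last pair of each being technical replicates. Every rescue library lay above every KO library, and the exon 6 clone regained more *Lin37* RNA than the exon 4 clone.

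Over both clones, 7 of the 9 genes were higher in KO, 0 were lower, and *Brca2* and *Xrcc2* did not pass the test (limma, without a replicate block, with a clone covariate on log2(RPKM + 0.5), Benjamini-Hochberg adjusted p under 0.05, two-sided). In the fit with the replicate number as block, which the pairing of samples allows, 5 were higher, with *Rad54l* (limma adjusted p = 0.0523) and *Exo1* (limma adjusted p = 0.0557) lost. Among all 16866 genes tested without the block, 1.61% were called higher in KO and 0.083% lower. The minimum level for testing was a mean over KO and rescue together. *Rad51ap1*, *Rad54b* and *Exo1*, with rescue means of 0.0692, 0.0938 and 0.0663 RPKM, reached it only through KO. With no minimum level only *Brca1* and *Blm* stayed called. The median log2 difference of the 9 genes was 0.74, beside -0.03 over all genes tested. Since 8 of the 9 are on the study's list, this difference and the counts given here are not independent of that list. All 9 were tested, and in each of the 4 pairs of same-numbered replicates all 9 were higher in KO. The same held for 15 of the 43 other recombination genes and 3 of the 19 end joining genes tested. Its share over all genes was not determined, so the count is a description only. In 8 of the 9, every KO replicate lay above every rescue replicate, which was so for 3.11% of all genes tested. Summed over the 9 genes, the level was 4.23 to 5.57 RPKM in the KO replicates and 0.898 to 1.68 RPKM in the rescue replicates.

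The log2 values understate the change of genes at this level, because the added 0.5 RPKM is as large as many of the values. With 0.1 RPKM added the median of the 9 genes was 1.64, and with 1 RPKM added it was 0.46, while the same 7 genes were called. The folds between mean levels given for single genes carry no added value. Leaving out replicate 1 or 2 of KO or replicate 2 of rescue in the exon 6 clone left 2 genes called, and leaving out rescue replicate 1 of that clone left 3. Without KO replicate 1, KO replicate 2, rescue replicate 1 or rescue replicate 2 of the exon 4 clone, 4, 5, 4 and 6 were called.

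**Figure D1:**
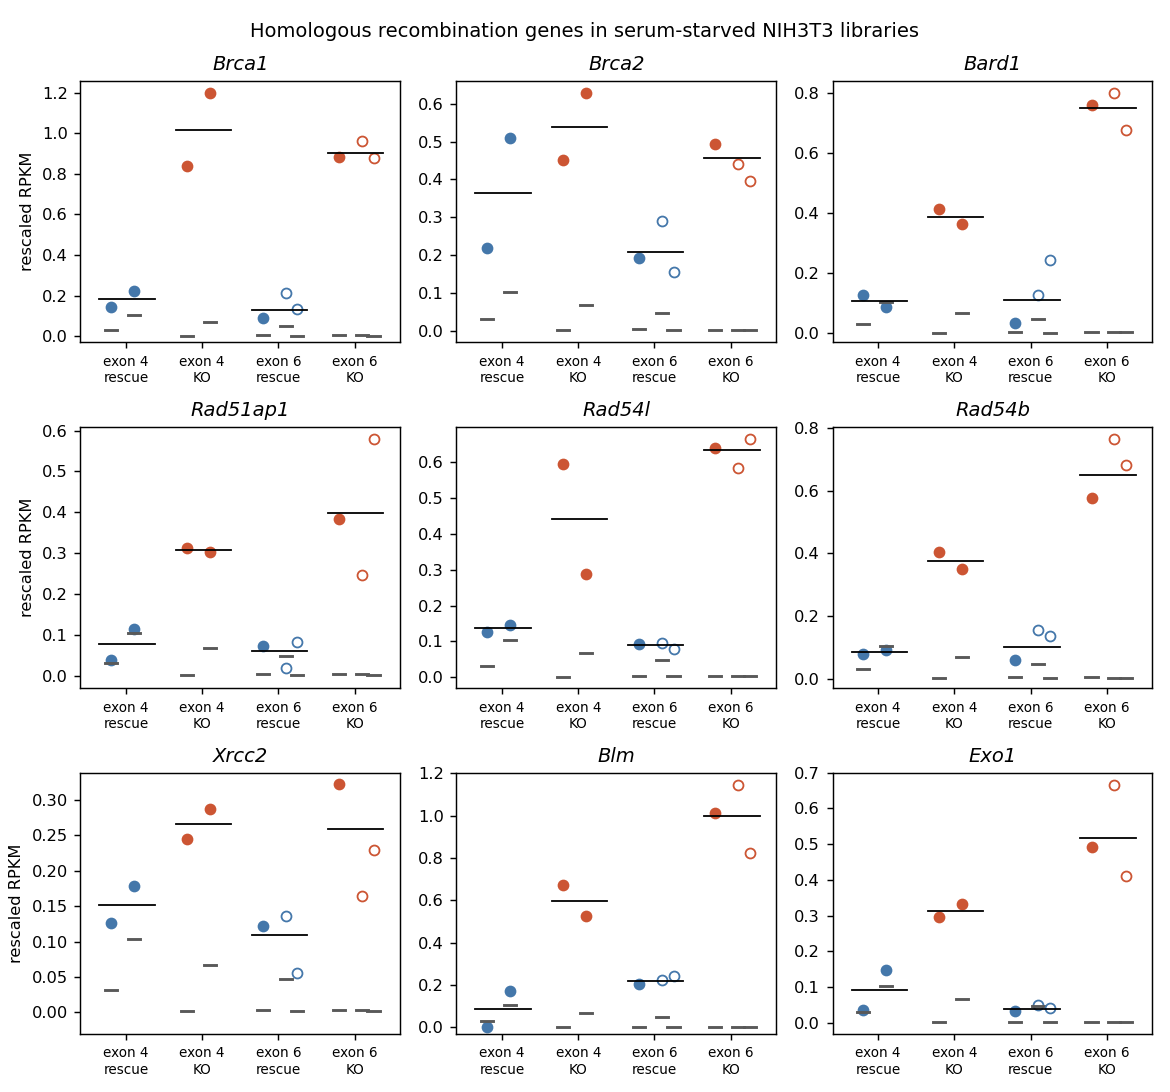
Level of each gene in every library, in rescaled RPKM on a linear axis that differs between panels. Blue points are rescue and red points KO libraries, open points are the technical replicates of replicate 2 in the exon 6 clone, black lines are group means over 2 replicates, and short grey lines mark the mean olfactory receptor level of each library; the KO replicates lie above the rescue replicates in 8 panels, and in the *Brca2* panel the groups overlap.

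Since these genes moved together, their promoters were read for the sites through which DREAM is known to bind, the E2F site and the cell cycle genes homology region (CHR). RefSeq windows from 250 bases before to 50 bases after the start site (GRCm38.p6) were at hand for 6 of the 9, and *Rad54b*, *Xrcc2* and *Exo1* had none. E2F sites were searched as TTCCCGC or its variants with other inner letters (TTCGCGC, then TTGGCGC, then TTGCCGC) and CHR sites as TTTGAA or else TTCGAA, on both strands. An E2F match was found in 5 of the 6 windows, and 9.57% of all 32817 promoter windows hold one. A CHR match was found only in *Bard1* among the 6, and 19.2% of all windows hold one. *Rad54l* held neither, and the variant TTCGAT, added to the search later and present in 2.06% of all windows, was found there. No matches overlapped. A match describes letters in a window and does not show binding. The 100 bases around each match are shown 5′ to 3′ on the strand of the gene, with the matches in capitals, so that the sites of the genes described next can be compared.
Brca1 (chr11:101551926-101552025, minus strand): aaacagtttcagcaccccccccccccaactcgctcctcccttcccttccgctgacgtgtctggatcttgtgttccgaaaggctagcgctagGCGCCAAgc
Brca2 (chr5:150522408-150522507, plus strand): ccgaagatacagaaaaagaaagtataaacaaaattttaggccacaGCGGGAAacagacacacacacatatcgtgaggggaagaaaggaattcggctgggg
Bard1 (chr1:71103123-71103222, minus strand): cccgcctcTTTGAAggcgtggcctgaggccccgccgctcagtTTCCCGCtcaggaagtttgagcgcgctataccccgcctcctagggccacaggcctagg
Rad51ap1 (chr6:126939558-126939657, minus strand): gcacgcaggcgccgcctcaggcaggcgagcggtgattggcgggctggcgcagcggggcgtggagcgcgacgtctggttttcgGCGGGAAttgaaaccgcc
Rad54l (chr4:116123661-116123760, minus strand): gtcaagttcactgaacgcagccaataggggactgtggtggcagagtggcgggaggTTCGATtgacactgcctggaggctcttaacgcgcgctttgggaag
Blm (chr7:80535086-80535185, minus strand): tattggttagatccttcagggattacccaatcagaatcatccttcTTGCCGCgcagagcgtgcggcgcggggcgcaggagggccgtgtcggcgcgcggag

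**Figure D2:**
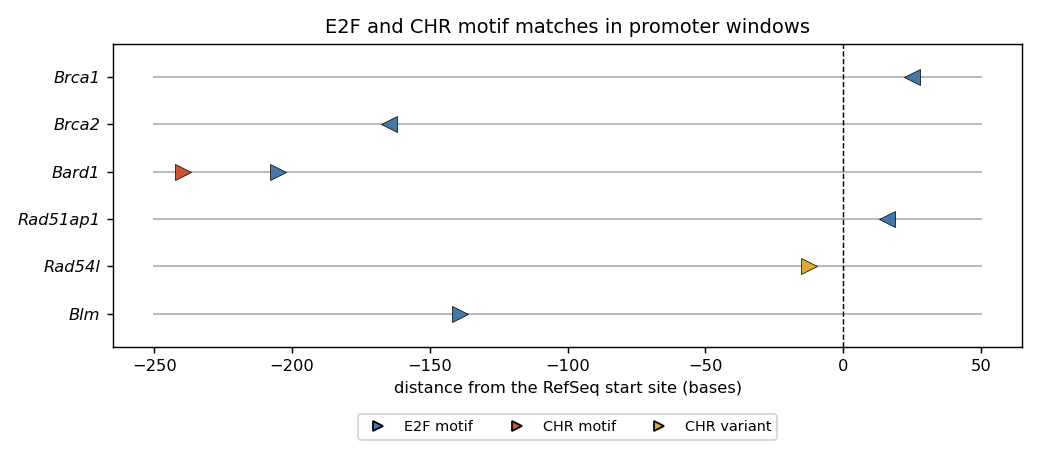
Positions of the motif matches in the promoter windows of the 6 genes, as distance in bases from the RefSeq start site (dashed line), with grey lines for the windows searched. Blue marks are E2F matches, the red mark is a CHR match and the yellow mark the variant, and the arrowhead gives the strand relative to the gene; the matches of *Brca1*, *Rad51ap1* and *Rad54l* lie within 30 bases of the start, the others further upstream.

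*Brca1* encodes a ubiquitin ligase subunit that favours end resection and helps to bring in BRCA2 (ENSMUSG00000017146, GRCm38 chromosome 11 from 101488764 to 101551955). KO libraries of the exon 4 clone had 0.838 and 1.20 RPKM, and its rescue libraries 0.145 and 0.224 RPKM. The exon 6 clone had 0.885, 0.963 and 0.880 RPKM in KO, against 0.0871, 0.210 and 0.135 RPKM in rescue. No KO library was below 0.838 RPKM and no rescue library above 0.224 RPKM, in either clone. Means were 0.961 ± 0.162 RPKM for KO and 0.157 ± 0.0569 RPKM for rescue (SD, n = 4 each), a 6.11-fold difference, with a log2 change of 1.15 (SE 0.11, limma adjusted p = 0.000951). This was the largest log2 change among the 9 genes.

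BARD1 is the partner without which BRCA1 is unstable, and *Bard1* (ENSMUSG00000026196, chromosome 1 from 71027498 to 71103146) was also higher in KO. Its KO libraries had 0.413 and 0.362 RPKM (exon 4 clone), or 0.761, 0.799 and 0.675 RPKM (exon 6 clone). The rescue libraries of the exon 4 clone had 0.128 and 0.0871 RPKM, and those of the exon 6 clone 0.0348, 0.127 and 0.242 RPKM. The exon 6 clone was the higher one in KO, with no overlap between its KO libraries and those of the exon 4 clone. Its technical pair of rescue differed by 0.24 on the log2(RPKM + 0.5) scale. Means were 0.568 ± 0.210 RPKM for KO and 0.109 ± 0.0635 RPKM for rescue, with a log2 change of 0.80 (SE 0.14, limma adjusted p = 0.0235). Without the clone covariate the call of *Bard1* was lost. The ratio of *Brca1* to *Bard1* was 1.16 to 3.31 in the KO replicates and 0.934 to 2.57 in the rescue replicates, so the ranges overlapped.

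*Exo1* encodes an exonuclease of long-range resection that also serves mismatch repair (ENSMUSG00000039748, chromosome 1 from 175880581 to 175913489). In KO it had 0.295 and 0.333 RPKM (exon 4 clone), or 0.493, 0.667 and 0.411 RPKM (exon 6 clone). Rescue libraries had 0.0375 and 0.149 RPKM in the former, or 0.0322, 0.0505 and 0.0417 RPKM in the latter. One rescue replicate of the exon 4 clone stood above the other rescue replicates, and it was still below every KO replicate. Means were 0.415 ± 0.119 RPKM for KO and 0.0663 ± 0.0557 RPKM for rescue, a 6.26-fold difference, with a log2 change of 0.69 (SE 0.13, limma adjusted p = 0.0368). With a block for the replicate number the limma adjusted p was 0.0557, so the call was lost. It was also lost with only sample 2 of each technical pair.

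*Brca2*, whose product acts in filament assembly, was the gene with overlapping groups (ENSMUSG00000041147, chromosome 5 from 150522630 to 150570329). Its exon 4 clone libraries gave 0.451 and 0.629 RPKM for KO, and 0.220 and 0.510 RPKM for rescue. Those of the exon 6 clone gave 0.494, 0.441 and 0.396 RPKM for KO, and 0.193, 0.289 and 0.156 RPKM for rescue. Rescue replicate 2 of the exon 4 clone reached the KO range, while in the exon 6 clone KO and rescue did not overlap. The log2 difference was 0.36 (SE 0.13, 95% interval 0.06 to 0.66, limma adjusted p = 0.423), with means of 0.498 ± 0.0925 RPKM in KO and 0.286 ± 0.150 RPKM in rescue. On RPKM as deposited *Brca2* was called (limma adjusted p = 0.0189), on a scale where the median of all genes was itself 0.64.

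XRCC2 helps to build the filament, and *Xrcc2* (ENSMUSG00000028933, chromosome 5 from 25689812 to 25705825) had the lowest KO mean of the 9 genes. It was measured at 0.245 and 0.287 RPKM in KO and at 0.126 and 0.179 RPKM in rescue of the exon 4 clone. In the exon 6 clone the KO libraries gave 0.322, 0.164 and 0.230 RPKM and the rescue libraries 0.122, 0.136 and 0.0557 RPKM. The KO replicates were all above the rescue replicates, by a narrow margin, since the lowest KO replicate was 1.10 times the highest rescue replicate. Its log2 difference was 0.27 (SE 0.11, 95% interval 0.03 to 0.51, limma adjusted p = 0.465), with a 2.01-fold difference between the mean levels. *Xrcc2* was likewise called on RPKM as deposited (limma adjusted p = 0.0407).

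The product of *Rad51ap1* stimulates strand invasion (ENSMUSG00000030346, chromosome 6 from 126923050 to 126939587). The KO libraries gave 0.312 and 0.303 RPKM (exon 4 clone), or 0.383, 0.247 and 0.580 RPKM (exon 6 clone), of which the last 2 were technical replicates of 1 sample. The rescue libraries of the same clones gave 0.0392 and 0.114 RPKM, or 0.0729, 0.0180 and 0.0828 RPKM. Groups did not overlap. On the log2(RPKM + 0.5) scale the technical pair of KO differed by 0.53, the widest technical gap among the 9 genes on that scale. As a plain ratio the technical pair of rescue, at 0.0180 and 0.0828 RPKM, differed more than that of KO. The means were 0.353 ± 0.0542 RPKM in KO and 0.0692 ± 0.0332 RPKM in rescue, with a log2 change of 0.58 (SE 0.10, limma adjusted p = 0.0270). With only sample 2 of each technical pair the adjusted p in limma was 0.0881.

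The related translocases RAD54 and RAD54B move along DNA and help the broken end to invade the sister molecule. *Rad54l*, the gene of RAD54 (ENSMUSG00000028702, chromosome 4 from 116094264 to 116123690), was at 0.595 and 0.287 RPKM in KO and at 0.127 and 0.147 RPKM in rescue of the exon 4 clone. It was at 0.640, 0.585 and 0.665 RPKM in KO and at 0.0923, 0.0967 and 0.0796 RPKM in rescue of the exon 6 clone. KO replicate 2 of the exon 4 clone was the lowest of the KO replicates and still above every rescue replicate. The log2 change was 0.74 (SE 0.14, limma adjusted p = 0.0351), from means of 0.537 ± 0.168 RPKM in KO and 0.114 ± 0.0283 RPKM in rescue. With the same block the limma adjusted p was 0.0523, so the call was lost.

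*Rad54b* (ENSMUSG00000078773, chromosome 4 from 11558922 to 11615805) had 0.405 and 0.348 RPKM in KO and 0.0787 and 0.0924 RPKM in rescue of the exon 4 clone. Its libraries of the exon 6 clone had 0.575, 0.765 and 0.681 RPKM in KO and 0.0592, 0.155 and 0.135 RPKM in rescue. KO was above rescue throughout, and within KO the exon 6 clone was above the exon 4 clone. The log2 change was 0.76 (SE 0.12, limma adjusted p = 0.0127), with a 5.47-fold difference between the means of 0.513 ± 0.170 and 0.0938 ± 0.0367 RPKM.

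Both translocase genes share annotated exons with another gene, and how the authors' counting split such reads is not stated. *Rad54l* shares 1184 of its 7706 exonic bases (15.4%) with *Lrrc41* on the opposite strand, and *Rad54b* shares 2068 of 5782 (35.8%) with *Fsbp* on the same strand. *Lrrc41* was at 2.72 ± 1.13 RPKM in KO and 2.97 ± 0.980 RPKM in rescue (log2 difference -0.13, limma adjusted p = 0.794). *Fsbp* was at 0.0376 RPKM in KO and 0.0221 RPKM in rescue on average and was not tested. These genes were chosen for the shared bases, not by their values, and the part of shared reads in the translocase values was not tested.

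*Blm* encodes a helicase that, with topoisomerase III alpha, dissolves joined DNA molecules without crossing over (ENSMUSG00000030528, chromosome 7 from 80454733 to 80535119). Libraries of the exon 4 clone had 0.673 and 0.524 RPKM in KO, and 0.00195 and 0.174 RPKM in rescue. The exon 6 clone had 1.01, 1.15 and 0.821 RPKM in KO, against 0.204, 0.222 and 0.240 RPKM in rescue. The KO libraries of the exon 6 clone were the highest and those of the exon 4 clone intermediate, and 1 rescue library had almost none. Means were 0.798 ± 0.239 RPKM for KO and 0.153 ± 0.103 RPKM for rescue, a 5.23-fold difference, with a log2 change of 0.99 (SE 0.12, limma adjusted p = 0.00295). *Brca1* and *Blm* were the only ones of the 9 still called over both clones under every alternative that left them to test.

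Low rescue values were set beside the olfactory receptor level of the same library. *Blm* was below it in rescue replicate 1 of the exon 4 clone, *Bard1* and *Rad54b* in rescue replicate 2 of that clone, and *Rad51ap1* in library 2 of rescue in the exon 6 clone, while all 9 genes were above it in every KO library. When the olfactory level of each library was subtracted from its genes, the same 7 genes were called, and they were also called without both replicates 2 of the exon 4 clone.

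In level, which RPKM allows to be compared per length, the order in KO ran from *Brca1* and *Blm* through *Bard1*, *Rad54l*, *Rad54b*, *Brca2* and *Exo1* to *Rad51ap1* and *Xrcc2*. *Blm* was above *Bard1*, and *Rad51ap1* above *Xrcc2*, in 4 of 4 KO replicates, whereas the other neighbours in the order changed places in at least 1 replicate. In rescue *Brca2* came first, above *Brca1* in 4 of 4 replicates, and the remaining neighbours changed places between replicates. *Brca2* was thus sixth in KO and first in rescue, and *Exo1*, seventh in KO, was last in rescue.

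The clones were also fitted alone, with 2 KO and 2 rescue replicates each. In the exon 6 clone 4 of the 9 genes were higher in KO by limma, namely *Blm* (log2 change 1.06, adjusted p = 0.0202), *Brca1* (1.16, adjusted p = 0.0228), *Rad54l* (0.94, adjusted p = 0.0288) and *Exo1* (0.91, adjusted p = 0.0356), where 1.24% of 15301 genes were called higher. Of the 4, *Rad54l* and *Exo1* had rescue means of 0.0902 and 0.0392 RPKM in this clone and reached the minimum level only through KO. Every KO replicate was above every rescue replicate for 9 of 9 genes in that clone, beside 21.8% of all genes tested. The largest fold between mean levels there was 13.2 for *Exo1*, with 0.516 RPKM in KO against 0.0392 RPKM in rescue. In rescue library 2 of that clone *Exo1* was at 0.0505 RPKM, beside a mean olfactory receptor level of 0.0472 RPKM. In rescue libraries 1 and 3 it was at 0.0322 and 0.0417 RPKM, beside 0.00396 and 0.00197 RPKM. So low a base makes the fold imprecise. With a block for the replicate number, 2 of the 9 were called in this clone, and 0 were called by limma after any 1 of its 4 replicates was left out.

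In the exon 4 clone limma called 0 of the 9 genes, and 0 of all 18751 genes tested (0%). At an unadjusted p under 0.05, *Brca1*, *Bard1*, *Rad54b* and *Blm* were higher, 4 of the 9, beside 2.27% of all genes. Log2 differences of the 9 genes ran from 0.23 for *Xrcc2* to 1.14 for *Brca1*, and for 8 of 9 genes the KO replicates lay above the rescue replicates, beside 11.4% of all genes. The lowest adjusted p was 0.442, for *Brca1*. A count of 0 with 2 replicates per group does not show that the genes did not differ.

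A test of the difference between the clones (clone by genotype interaction, limma) called 0 of the 9 genes and 0 of 16866 genes in all (0%). None of the 9 had an unadjusted p under 0.05, beside 2.57% of all genes with a larger and 1.49% with a smaller estimate in the exon 6 clone, and each adjusted p was 0.997. The estimates were larger in the exon 6 clone by 0.02 for *Brca1* to 0.50 for *Bard1*, whose 95% interval ran from -0.04 to 1.03, and the intervals of all 9 included 0. Which clone had the larger estimate turned with the setting for *Brca1*, *Brca2*, *Xrcc2* and *Blm*, all 4 of them with quantile normalization, where *Brca1* was at 1.55 in the exon 4 and 1.28 in the exon 6 clone. The fold between the mean levels of *Blm* was 6.82 in the exon 4 and 4.59 in the exon 6 clone.

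**Figure D3:**
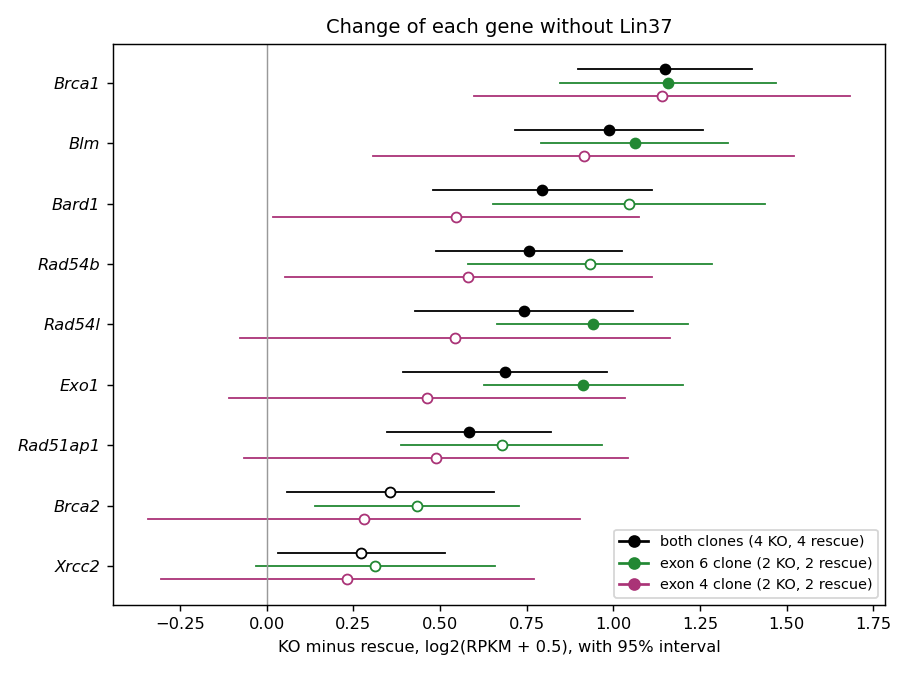
Difference between KO and rescue for each gene on the log2(RPKM + 0.5) scale, with 95% intervals from limma, over both clones (black) and in each clone alone (green, exon 6; purple, exon 4). Filled points have an adjusted p under 0.05: 7 over both clones, 4 for the exon 6 clone and 0 for the exon 4 clone, where the intervals are widest.

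The other genes of the pathway were followed in a list of 45, of which 43 were tested and *Dna2* and *Rmi2* were under the minimum level. Of the 43, 6 were higher in KO and 0 lower, with a median log2 difference of 0.11, and the remaining 37 did not pass. The 6 are on the study's list, which was drawn from these libraries by the same comparison. Their direction and calls are therefore not independent evidence.

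The 6 genes came from different steps. *Eme1*, a subunit of the MUS81 nuclease that cuts joined molecules, had a log2 change of 1.14 (SE 0.13, limma adjusted p = 0.00238) at 0.869 ± 0.207 RPKM in KO against 0.117 ± 0.0347 RPKM in rescue. Its catalytic partner *Mus81* was at 0.841 RPKM in rescue and 0.864 RPKM in KO (log2 difference 0.03, limma adjusted p = 0.960, a gene named after its values were seen). *Gen1*, a nuclease with a similar task, had a log2 change of 0.74 (limma adjusted p = 0.0238, and 0.0502 with the replicate block). One subunit of the MUS81 nuclease was thus called and the other was not, and the difference between them was not tested.

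*Rpa2*, of the complex that coats single strands, had a log2 change of 0.96 (limma adjusted p = 0.00731). *Rbbp8*, whose product CtIP starts resection, had a log2 change of 0.50 (limma adjusted p = 0.0365, and 0.0554 with the replicate block).

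*Rtel1*, a helicase that disrupts strand invasion, and *Mcm8*, a helicase of repair synthesis, had log2 changes of 0.95 (limma adjusted p = 0.00107) and 0.90 (limma adjusted p = 0.00291). Among genes that did not pass, the largest differences were 0.68 for *Parpbp* (limma adjusted p = 0.0530), 0.57 for the BRCA1-binding helicase gene *Brip1* (adjusted p = 0.0575) and 0.54 for *Rad50* (adjusted p = 0.101). With the block, *Brip1* (limma adjusted p = 0.0390) and *Parpbp* (limma adjusted p = 0.0356) were called while *Rbbp8* and *Gen1* were not, and the count stayed at 6.

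End joining, which seals breaks without a template and works throughout the cell cycle, was set beside recombination. Of 19 genes tested, limma called 0 in either direction, and before adjustment 3 had p under 0.05, all higher (5.06% of all genes were so higher and 3.72% lower). The 3 were also those with the largest differences: *Xrcc1* at 0.50 (limma adjusted p = 0.124), *Polq*, the polymerase of alternative end joining, at 0.43 (adjusted p = 0.228), and *Poll* at 0.42 (adjusted p = 0.0924). The median of the 19 genes was 0.06. Of these, *Polq* alone is on the study's list, and its groups did not overlap. Off that list, 0 of 1 of the 9 genes, 0 of 33 other recombination genes and 0 of 18 end joining genes were called higher. The difference in counts between recombination and end joining is therefore not independent of the study's list. On RPKM as deposited 3 of the 19 were called higher, and 2 with the technical replicates as separate libraries.

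**Figure D4:**
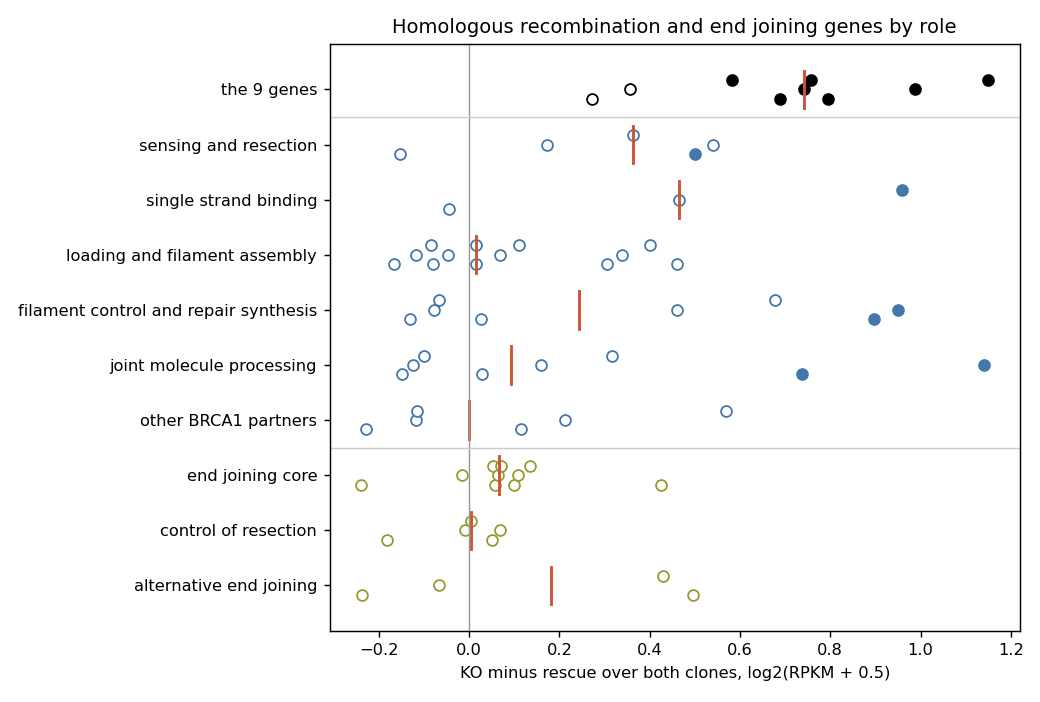
Difference between KO and rescue over both clones, on the log2(RPKM + 0.5) scale, for the 9 genes (black), the 43 other recombination genes tested (blue, by role) and the 19 end joining genes (olive). Each point is a gene, filled where the limma adjusted p is under 0.05, and red lines are medians. The filled points number 7, 6 and 0, and all of them are genes on the study's own list.

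Neighbours that start close to these genes on the opposite strand were also measured. *Nbr1*, which starts 194 bases from *Brca1* on the opposite strand, was at 4.85 ± 0.577 RPKM in KO and 4.94 ± 0.826 RPKM in rescue (log2 difference -0.02, limma adjusted p = 0.972). *Pomgnt1*, 150 bases from *Rad54l*, had a log2 difference of 0.12 (adjusted p = 0.759). *D6Wsu163e*, 375 bases from *Rad51ap1*, had 1.71 ± 0.0631 RPKM in KO against 1.29 ± 0.139 RPKM in rescue, without overlap, and a log2 difference of 0.30 (limma adjusted p = 0.264). *Gm23641* lies inside *Brca2*, 559 bases from the start of a shorter annotated transcript and far from the promoter shown above, and was under the minimum level. None of the 3 tested neighbours passed, whereas *Brca1*, *Rad54l* and *Rad51ap1* did, and the differences within these pairs were not tested.

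Markers of proliferating cells were followed beside these genes. Of 10 such markers 7 were higher in KO by limma (*Mki67*, *Top2a*, *Ccna2*, *Cdk1*, *Plk1*, *Mcm2* and *E2f1*), 0 were lower, and *Ccnb1*, *Pcna* and *Ccne2* did not pass, *Ccne2* with a log2 difference of -0.14 (limma adjusted p = 0.811). Their summed level was 15.9 to 19.7 RPKM in the KO replicates and 4.65 to 6.27 RPKM in the rescue replicates. In bulk RNA a larger share of cells that express these genes and more RNA per cell cannot be told apart, and the part of cycling cells in the values of the 9 genes was not tested.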

How the data were processed

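The authors extracted total RNA, depleted ribosomal RNA and prepared the libraries with a kit for degraded RNA (Ovation Human FFPE). They clipped adapters with cutadapt 1.8.3, mapped reads to mm10 with segemehl 0-2-0, counted them per gene with rnacounter 1-5-2 against GENCODE vM5, and deposited RPKM values, 1 column per library. The submitters' processing notes also name Picard 1.89, with no role given. The deposited values hold no counts, so the authors' edgeR test could not be run. Only 10.2% to 18.2% of low values per library were whole multiples of their commonest step (within 0.05 of a step), so reads could not be recovered, and the depth and the counting error of each library are unknown.

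Libraries were rescaled by the median of their ratios to the geometric mean of 8523 genes (factors 0.324 to 2.70), and technical replicates were averaged. Genes whose mean over the KO and rescue replicates of a fit reached 0.1 RPKM were tested on log2(RPKM + 0.5). The test was limma 3.58.1 in R 4.3.3 (lmFit, eBayes with trend, clone as covariate over both clones), adjusted over all genes by Benjamini-Hochberg. A gene that is low in rescue can reach this minimum through KO alone. Annotation was GENCODE M21 (GRCm38), in which 44585 of 45232 identifiers were found. The fits were tried on simulated data with 100 changed genes under 1 RPKM at each of 2-fold and 4-fold. The fit over both clones recovered 21 and 58 of them, and the fit of a single clone 0 and 0. In the measured data the fit of the exon 6 clone alone called 4 of the 9 genes, so the simulation does not describe what that fit can recover. The 21 and 58 hold only for the simulated setting and are not a recovery rate for the measured data, where 271 genes were called higher. Genes not called are not shown to be unchanged. Whether the replicates came from separate platings on separate days is not stated in the labels.

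In the labels, KO and rescue samples of the same clone carry the same numbers. Same-numbered replicates deviated together from their group means (correlation 0.477 in the exon 4 and 0.360 in the exon 6 clone, over 7550 genes), so the numbers were taken to pair the samples, and the fit with that block is given where it changed a call.

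The 9 genes and the lists beside them were chosen with earlier results of these data known. Named were the 9 genes, *Lin37*, genes of the recombination and end joining lists that were called and the 3 largest not called in each, neighbours that start within 1000 bases, and the 5 genes most alike in profile. One gene of the recombination list is not reported here and is in none of its counts. Further genes are named as chosen for another reason where they appear. Alternatives tried were pseudocounts of 0.1 and 1, no minimum or 1 RPKM, values as deposited, quantile normalization, technical replicates apart or only sample 2, the replicate block, no trend, no clone covariate and each replicate left out. The subtraction of the olfactory level and the fit without replicates 2 of the exon 4 clone were added after the data were seen.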

Additional observations from a re-analysis of the deposited data

Results flagged for a closer look

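In each of the 18 groups of 4 replicates (9 genes in KO and in rescue), the gap of the most extreme replicate to its neighbour was divided by the range of the group and compared with Dixon's 95% limit for 4 samples. Among independent values of 1 normal distribution, chance alone passes this limit in about 1 in 20 groups. Each group here joins 2 clones, and all 18 come from the same 8 replicates, so that rate need not hold. The limit was passed by 3 values. *Brca2* in rescue had its highest replicate at 0.510 RPKM, with a gap of 0.905 of the range. *Exo1* in rescue had its highest replicate at 0.149 RPKM, with a gap of 0.881. *Rad54l* in KO had its lowest replicate at 0.287 RPKM, with a gap of 0.873. All 3 values came from replicate 2 of the exon 4 clone, in which the mean olfactory receptor level was 0.0673 RPKM for KO and 0.104 RPKM for rescue, the highest of each genotype.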

How the results depend on the processing

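KO stayed above rescue for all 9 genes in every fit, over both clones and in each, while the clone with the larger difference changed for *Brca1*, *Brca2*, *Xrcc2* and *Blm*. Of the 9 genes, 7 were called over both clones, 2 with no minimum level (*Brca1* and *Blm*) and 2 to 6 with 1 replicate left out. With the pairing of replicates as a block 5 were called, with *Rad54l* and *Exo1* lost. With only sample 2 of each technical pair 5 were called, with *Rad51ap1* and *Exo1* lost. Without the clone covariate 6 were called, with *Bard1* lost. On RPKM as deposited all 9 were called. In the exon 6 clone the count of 4 became 0 with no minimum level, 9 on RPKM as deposited, 0 with only sample 2 of each technical pair and 2 with the replicate block, and it was 0 whichever replicate was left out, where the lone replicate was taken to vary like the other group. In the exon 4 clone the count of 0 became 1 (*Brca1*) where its contrast came from 1 fit over all 8 replicates. The other recombination genes, 6 higher, became 3 with no minimum level, 0 of 12 tested at a minimum of 1 RPKM and 17 on RPKM as deposited, and 4 to 7 with 1 replicate left out, the 4 being reached without each of the replicates of the exon 6 clone. End joining genes went from 0 to 3 on RPKM as deposited and to 2 with technical replicates as separate libraries. With no minimum level 40885 genes were tested in place of 16866. A minimum of 1 RPKM left none of the 9 genes to test. On RPKM as deposited the median log2 difference of all genes was 0.64 and that of the 9 genes 1.20, so the gap between them was 0.56 in place of 0.78. The causes of the shifts in these counts were not tested. The levels, most of them under 1 RPKM, and the unknown depth limit the precision of every fold given.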

Other observations

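The 5 protein coding genes most alike to the mean profile of the 9 genes, by Pearson's r over the 8 replicates and among 11355 candidates, were *Ndc80* (0.992), a kinetochore gene, *Pole* (0.991), the leading strand polymerase, *Mybl1* (0.988), a MYB family factor, *Ticrr* (0.987), of replication initiation, and *Fanci* (0.987), of crosslink repair. All 5 are on the study's list. The replicates fall into a KO and a rescue cluster, so these values describe mostly that division and carry no test. *Ndc80* was at 1.52 ± 0.244 RPKM in KO and 0.118 ± 0.153 RPKM in rescue, and *Fanci* at 0.475 ± 0.0699 and 0.0593 ± 0.0570 RPKM (SD, n = 4).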
